A study of Mus musculus with 12 samples.

Results

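CTCF and the cohesin complex shape the folding of mammalian chromosomes, and the 10 genes described here encode CTCF and the main subunits and regulators of cohesin: Ctcf, Rad21, Smc1a, Smc3, Stag1, Stag2, Nipbl, Wapl, Pds5a and Pds5b. They were chosen by name, out of 21631 protein-coding genes on mouse chromosomes 1 to 19 and X, and each was read over its RefSeq span with 10 kb on each side. H3K27ac (histone H3 acetylated at lysine 27, found at active promoters and enhancers) and binding of KLF4, a zinc-finger factor of the pluripotency network, had been mapped by chromatin immunoprecipitation sequencing (ChIP-seq). The embryonic stem cells (ESCs) were of the V6.5 line, kept on feeder cells in 2i, a medium with MEK and GSK3 inhibitors that holds mouse cells in the naive state. All ESC groups, controls included, carried a lentiviral doxycycline-inducible Cas9 with guides, aimed, as far as the labels say, at either only Klf4 or the trio Klf2, Klf4 and Klf5, in clonal lines that had been picked by hand. H3K27ac was measured in 2 samples at 0 h, labelled wild type (no induction), and in 2 samples at 24 h of doxycycline, labelled both TKO and KLF4 KO, with 2 input libraries. The other cells, whose descriptions name no Cas9, were induced pluripotent stem cells (iPSCs), also in 2i, with 2 samples for KLF4, 2 for H3K27ac and 1 input for each.

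CTCF is a zinc-finger protein that binds its motif in a fixed orientation and marks the borders of chromatin loops. Cohesin is a ring of SMC1A, SMC3 and the kleisin RAD21, joined by STAG1 or STAG2. NIPBL loads the ring and drives loop extrusion, WAPL opens it and releases it from DNA, and PDS5A and PDS5B bind it and regulate both its hold and its release. These proteins are made in all dividing cells, since cohesin also holds sister chromatids together until they separate.

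Each group was deposited as 1 list, so no value has a replicate error, read depth is unknown, and no difference below could be tested. An ESC list gives 10 kb bins with an H3K27ac signal on an unstated scale and a whole number of unstated meaning, called the bin score. The 10 genes touched 80 listed bins, of which 44 of 72 had a signal at 0 h and 50 of 75 at 24 h. Each of the 10 genes had at least 1 bin valued at both times, against 52% of all genes. This share was not matched for length, and the 10 genes are longer (median 84.1 kb against 17.3 kb). Without flanks, 9 of the 10 had such a bin. Neighbouring bins often share 1 value, so 42 bins with a value at both times held only 36 distinct runs. All 7 pluripotency markers checked had ESC signal at both times, with a median highest value of 10.0 at 0 h and 7.87 at 24 h. Of 6 fibroblast markers, checked because of the feeder cells, 4 had none, Col1a1 reached 3.35 at 0 h and 2.59 at 24 h, and Vim 2.98 and 5.31. A bulk list cannot tell a change in all cells from a change in some of them.

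Across all bins with a value at both times, the median log2 of the 24 h over the 0 h signal was -0.23, and differences are given relative to that median, as relative values. On this scale 9 of the 10 genes lay above 0 and Rad21 lay below, against 53.3% of 11243 measured genes above 0, but 8 of the 9 turned below 0 with the values as deposited, Pds5a being the exception. The median over the 10 genes was 0.08, against 0.02 over all measured genes. Only Pds5a passed a 1.2-fold difference upward (13.1% of genes did), and none passed it downward (11.6% did), so the count past the fold was near that of genes in general. These calls depended on the settings: the count of higher genes was 3 without bins shared with other genes and 0 with the highest value at each time, and Rad21 was past 1.2-fold downward in 5 alternatives. The share of all genes was not computed under those settings. In the plot of relative values, 9 of the 10 means fall inside the band that holds the central genes, from -0.29 to 0.31.

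**Figure D1:**
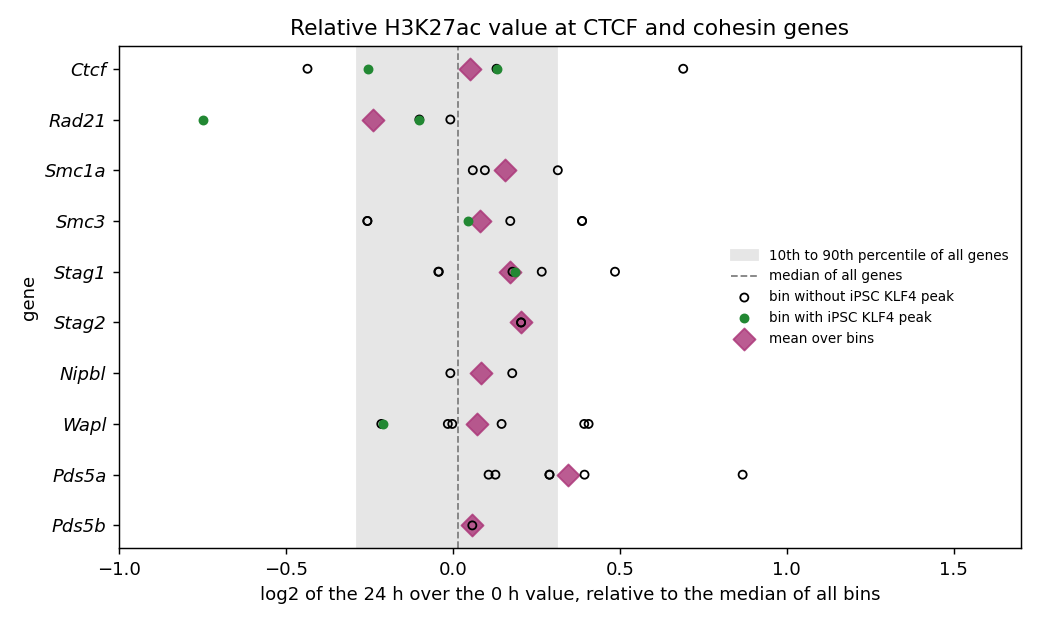
Log2 of the 24 h over the 0 h H3K27ac value relative to the median of all bins (x axis) for each gene (y axis); circles are single bins, filled green where the bin holds an iPSC KLF4 peak, and diamonds are means over bins. The grey band runs from the 10th to the 90th percentile of all measured genes, -0.29 to 0.31; only the mean of Pds5a, 0.35, lies outside it, and the lowest single bin, at Rad21, is at -0.75.

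The RefSeq promoter table held windows, from 250 bases before to 50 after the start, for 7 of the 10 genes. At 2 of the 7, Ctcf and Pds5b, an iPSC KLF4 peak overlapped the window. Of all promoter windows of protein-coding genes, 21.2% were overlapped by a KLF4 peak. These 2 windows are shown because KLF4 bound there. The sequences are from RefSeq (GRCm38.p6, plus strand for both), at chr8:105636288-105636587 for Ctcf and chr5:150673577-150673876 for Pds5b, with the bases inside the KLF4 peak in capitals.
Ctcf: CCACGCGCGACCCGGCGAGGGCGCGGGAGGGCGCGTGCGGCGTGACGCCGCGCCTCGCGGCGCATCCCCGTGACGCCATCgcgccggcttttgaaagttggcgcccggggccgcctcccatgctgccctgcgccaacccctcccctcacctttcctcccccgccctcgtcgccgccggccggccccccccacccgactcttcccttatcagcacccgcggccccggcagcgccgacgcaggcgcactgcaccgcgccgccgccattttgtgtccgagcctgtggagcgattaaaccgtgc
Pds5b: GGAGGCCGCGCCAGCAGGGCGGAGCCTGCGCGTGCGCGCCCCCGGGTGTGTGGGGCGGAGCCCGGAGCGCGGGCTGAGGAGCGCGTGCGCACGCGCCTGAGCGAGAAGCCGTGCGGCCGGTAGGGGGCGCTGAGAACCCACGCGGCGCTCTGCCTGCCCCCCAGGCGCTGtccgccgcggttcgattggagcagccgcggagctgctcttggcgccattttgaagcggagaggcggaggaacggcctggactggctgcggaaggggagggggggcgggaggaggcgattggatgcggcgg
The peak covered the first 80 bases of the Ctcf window and the first 170 of the Pds5b window, and 82.5% and 80.0% of those bases were G or C.

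Both strands of the 7 windows were searched for letters of known motifs. A KLF core written GGGNGTGG was in none of the 7, and in 19.6% of all promoter windows. The shorter CACCC box, GGGTG, was in 4 of 7 (59.8% of all windows): at Pds5b it lay inside the KLF4 peak, 207 bases before the start, and at Ctcf both matches lay outside the peak. A GC box, GGGNGGGG, whose letters overlap those of the KLF core, was in 3 of 7 (39.8% of all windows), 4 times at Ctcf. The Pds5b window also held AGGGGGCGC, the core of the CTCF motif, inside the KLF4 peak and 129 bases before the start; 1.72% of all windows held it. That last motif was searched for after the sequences had been seen.

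At Ctcf (chr8:105636474-105682922) the promoter bin and the next one shared 1 signal, 6.07 at 0 h and 5.68 at 24 h, a relative value of 0.13. The bin 10 kb further into the gene had 2.30 and 3.17, and the bin at the far end, shared with Carmil2, had 3.19 and 2.02. The first flanking bin, shared with Ripor1, had 2.51 and 1.79. A bin inside the gene had no value at 0 h and 3.14 at 24 h. The bins of this gene therefore differed in both directions, with an SD of 0.43 over 5 bins around a mean of 0.05. With the 2 bins shared with neighbouring genes left out, the mean was 0.32. The widest iPSC H3K27ac peak was a 2389-base peak over the start, and the 321-base KLF4 peak lay inside it, centred 331 bases before the start.

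**Figure D2:**
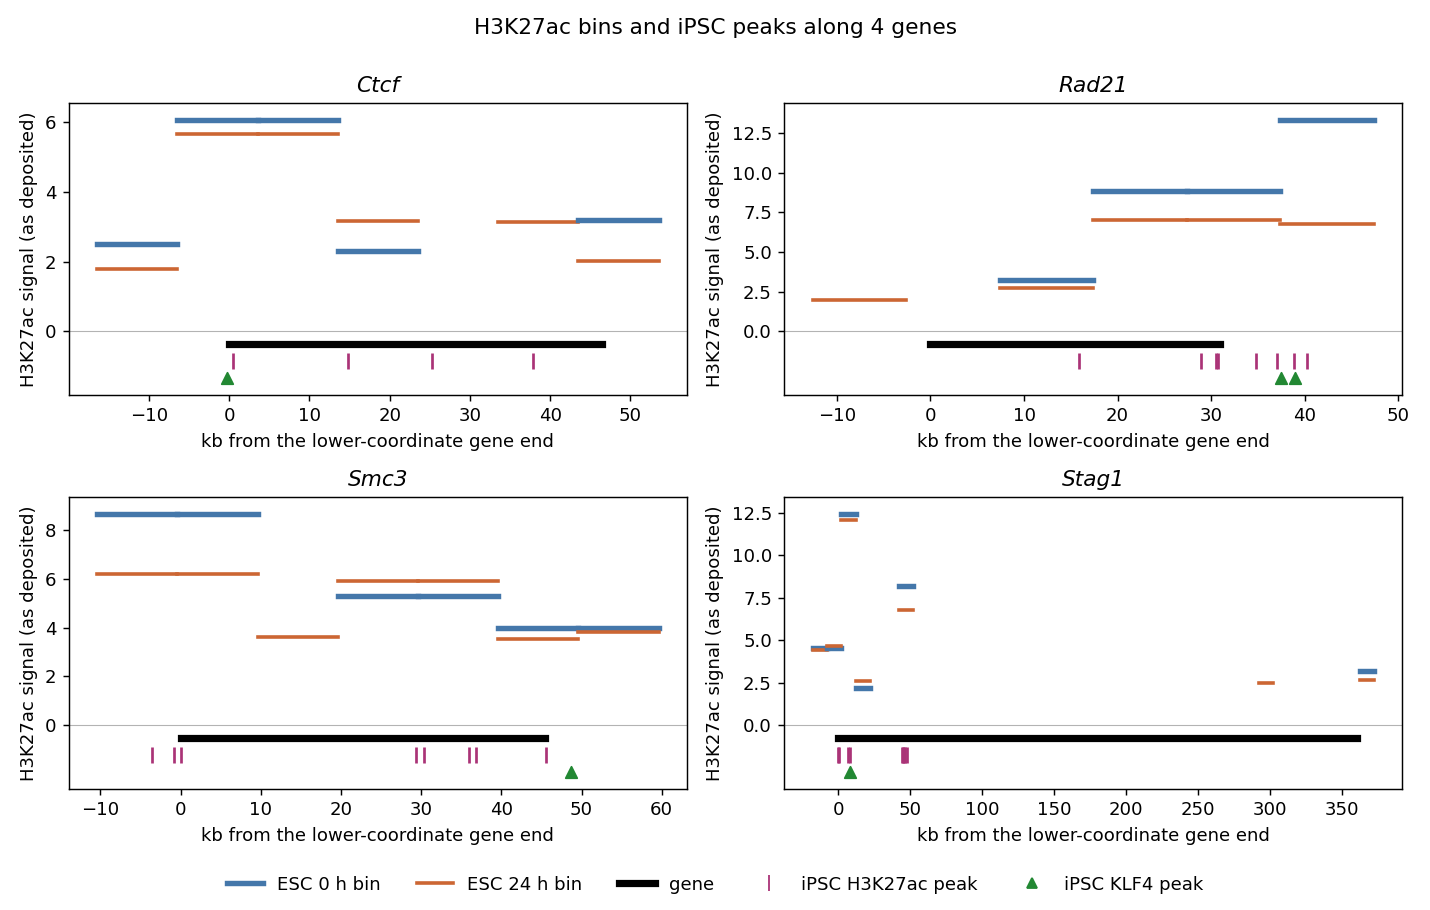
H3K27ac signal as deposited (y axis) of each valued 10 kb bin at 0 h and 24 h along Ctcf, Rad21, Smc3 and Stag1 (x axis: kb from the lower-coordinate gene end), with the gene as a black bar, iPSC H3K27ac peaks as ticks and KLF4 peaks as triangles. The bin beyond the upper-coordinate end of Rad21 stands at 13.3 at 0 h and 6.76 at 24 h. The KLF4 peak of Ctcf sits at the gene's start.

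Among the ring genes, Rad21 (chr15:51962604-51993538), the kleisin that closes the ring, had the lowest relative value, -0.24. Its 2 bins at the upper-coordinate end shared 8.83 at 0 h and 7.03 at 24 h, one of them touching Gm52217 as well, and the bin before them had 3.22 and 2.73. The flanking bin beyond that end had 13.3 at 0 h and 6.76 at 24 h, a relative value of -0.75, and was the lowest bin of the 10 genes. That bin lies outside the gene and held 1 of the 2 KLF4 peaks of the region and most of the other. The peaks were 181 and 389 bases wide, lay 7.99 and 6.51 kb beyond the gene's upper-coordinate end, and both overlapped iPSC H3K27ac peaks. The promoter table held no window for Rad21, so whether that end is the gene's start was not read. The relative value of Rad21 was -0.07 without flanks, where that bin is left out, and -0.34 with 25 kb flanks. It was -0.29 without bins shared with other genes or when bins of equal value in a row counted once, and -0.69 with the highest value at each time, all past 1.2-fold lower except the value without flanks. In iPSCs the span with its flanks held 8 H3K27ac peaks covering 6928 bases, or 13602 bases per 100 kb, the densest cover of the 10 genes. Several of these peaks, including one of 2401 bases, lay beyond the gene's upper-coordinate end.

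Smc3 (chr19:53600396-53645831), which encodes an ATPase arm of the ring, differed along its length. Its start bin and the bin before it shared 8.65 at 0 h and 6.18 at 24 h, a relative value of -0.26. The 2 bins in the middle of the gene shared 5.28 and 5.90, a relative value of 0.39, and the bin between these pairs had 3.60 at 24 h and none at 0 h. The last bin that touches the gene had 3.99 and 3.51, and the flanking bin after it 3.99 and 3.84. The start was thus lower and the middle of the gene higher at 24 h, relative to all bins and as deposited, and the mean of 0.08 averages these and the other bins. With the highest value at each time in place of the mean, Smc3 was at -0.26. An iPSC H3K27ac peak of 1614 bases lay in the bins of the gene body, and the single KLF4 peak, 113 bases wide and 3.22 kb past the gene's end, overlapped no H3K27ac peak. Smc3 had the highest bin score per listed bin of the 10, 10.4 at 0 h and 9.71 at 24 h, at percentile 97.6 of all genes at 0 h.

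Smc1a (chrX:152016428-152061973), the other ATPase arm, had 3 valued bins, all at its lower-coordinate end. The start bin, shared with Ribc1, had 7.91 at 0 h and 7.22 at 24 h, the next bin 4.30 and 4.56, and the flanking bin, shared with Ribc1 and Hsd17b10, 3.34 and 2.97. Its relative value was 0.16 with an SD of 0.14 over bins, and 0.31, past 1.2-fold, from the 1 bin shared with no other gene. No KLF4 peak lay in its span, and 1 of its 2 iPSC H3K27ac peaks, 1753 bases wide, covered the start.

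Among bins that touch the genes themselves, the highest H3K27ac signals were at the genes for the alternative STAG subunits. At Stag2 (chrX:42149297-42277186) the 2 bins at the lower-coordinate end shared 20.4 at 0 h and 20.1 at 24 h, which ranked 3 among all genes at both times by the highest value in the span. No other bin of Stag2 had a value, so its relative value of 0.20 is that of 1 run. Stag1 (chr9:100597709-100958544) had 2 strong bins, 12.4 and 12.1 near its lower end and 8.21 and 6.80 about 40 kb further in, at the promoter that the RefSeq table lists. The first of these held the gene's only KLF4 peak, 473 bases wide and inside a 2582-base iPSC H3K27ac peak. The relative value of that bin was 0.19 and that of the listed promoter's bin -0.04, and the mean over 6 bins was 0.17 (SD 0.20). Stag1 thus had KLF4 and the strongest signal away from its listed promoter, and Stag2 had no KLF4 peak at all. In iPSCs the 2 H3K27ac peaks at Stag2 were 422 and 1212 bases wide, against a median of 405 bases in the whole list.

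**Figure D3:**
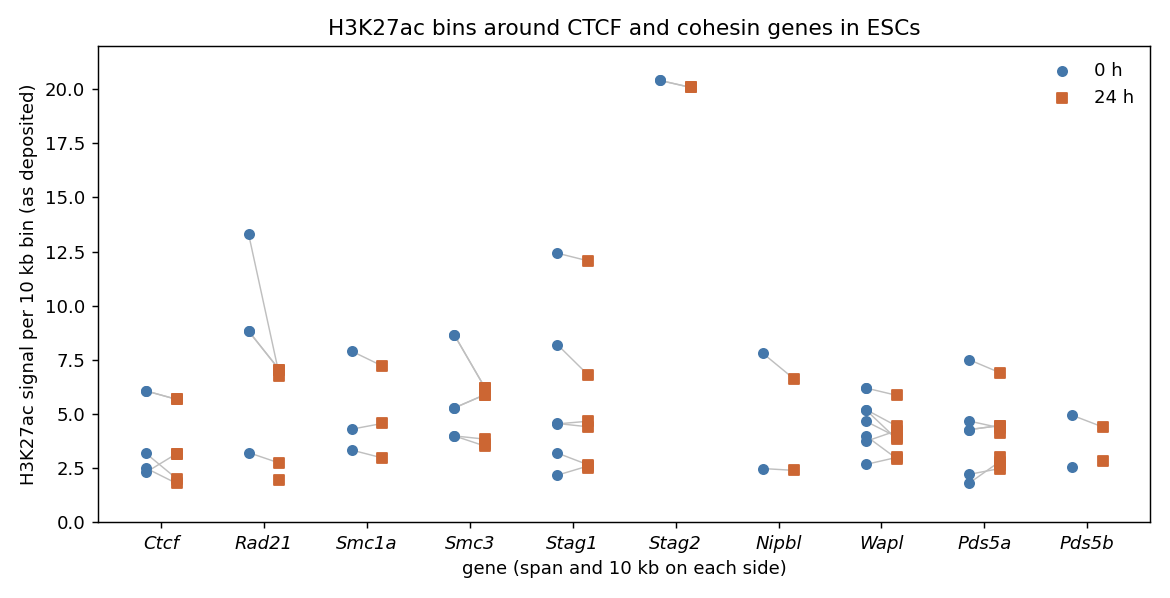
H3K27ac signal as deposited (y axis) of every valued 10 kb bin of the 10 genes (x axis) at 0 h (circles) and 24 h (squares); grey lines join a bin's values at both times. Stag2 stands at 20.4 and 20.1, Stag1 reaches 12.4 and 12.1, and the highest Rad21 bin stands at 13.3 and 6.76.

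Nipbl (chr15:8289824-8465315), the gene of the loader, had signal in 2 bins near its upper-coordinate end. They had 7.79 and 2.48 at 0 h and 6.62 and 2.40 at 24 h, for a relative value of 0.08. The stronger bin is shared with LOC102634078, and both iPSC H3K27ac peaks, 1090 and 600 bases wide, lay in it. A KLF4 peak of 341 bases lay 44.3 kb inside the gene from that end, in a bin without H3K27ac value at either time and outside any iPSC H3K27ac peak.

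Wapl (chr14:34672379-34747983), the gene of the release factor, had signal along most of its length. The start bin had 5.20 at 0 h and 4.44 at 24 h, a relative value near 0, and the bin just before had 5.19 and 3.83. The highest values lay in the middle of the gene, where neighbouring bins shared 6.20 at 0 h. The first of these, with a 1729-base iPSC H3K27ac peak, was not listed at 24 h. The next had 5.86 at 24 h and held iPSC H3K27ac peaks of 777 and 1443 bases. The 2 valued bins nearest the far end had 2.67 and 3.74 at 0 h and 3.00 and 4.23 at 24 h, and were higher at 24 h also as deposited. The mean over 7 bins was 0.07 (SD 0.26), and it was -0.02 with 25 kb flanks. No KLF4 peak lay in its span.

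Pds5a (chr5:65605719-65698236) had the highest relative value, 0.35 (SD 0.28, 6 bins), or 1.27-fold, at percentile 91.8 of measured genes. Its promoter bin had 7.51 at 0 h and 6.91 at 24 h, a relative value of 0.11, and the largest relative values lay at the opposite end of the gene. The bin at the lower-coordinate end had 1.80 and 2.80, and the flanking bin shared with Ube2k had 2.21 and 2.48. Next to these, 3 neighbouring bins had no value at 0 h and 3.03, 4.13 and 2.64 at 24 h. Only 0.448% of all genes had 3 or more bins valued at 24 h alone, although Pds5a, at 92.5 kb, is longer than most (median 17.3 kb). The cut of 3 is the count of Pds5a itself, and this share was not matched for length. For comparison, the median valued bin of the whole lists was 4.65 at 0 h and 4.05 at 24 h. The relative value of Pds5a was 0.11 with the highest value at each time in place of the mean over bins, and 0.12 with values as deposited, and in both cases the gene was not past 1.2-fold. No KLF4 peak lay in its span, and 2 iPSC H3K27ac peaks of 259 and 232 bases lay in the bins valued only at 24 h.

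Pds5b (chr5:150673713-150810669) could hardly be read in ESCs. The bin of its promoter was listed at neither time, although an iPSC H3K27ac peak of 274 bases and the KLF4 peak lay there. Of promoter windows with an iPSC H3K27ac peak, 945 of 7240 (13.1%) lay in unlisted bins. Its single bin valued at both times, 4.95 and 4.40, lies outside the gene and touches N4bp2l2, so its relative value of 0.06 does not describe Pds5b itself. At the far end, 1 bin had 2.55 at 0 h alone and another 2.85 at 24 h alone.

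Bins valued at 1 time only were uneven over the 10 genes. There were 8 with a value at 24 h alone, in Ctcf, Rad21, Smc3, Stag1, Pds5b (1 each) and Pds5a (3), and 2 with a value at 0 h alone, in Wapl and Pds5b. Over all bins the order was the opposite, with 2872 at 24 h alone and 4073 at 0 h alone. A 24 h-only bin was found at 6 of 10 genes (12.3% of all genes) and a 0 h-only bin at 2 of 10 (16%). The 10 genes are long, with a median of 84.1 kb against 17.3 kb, so they touch more bins than most genes, and the part of length in these counts was not tested. The values of the 24 h-only bins ranged from 1.95 to 4.13, and those of the 0 h-only bins were 6.20 at Wapl and 2.55 at Pds5b.

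The bin score was almost equal at both times over the 10 genes, 329 at 0 h and 341 at 24 h, whereas over all bins it summed to 186496 and 168512. Single genes differed. Pds5a had 23 at 0 h and 44 at 24 h, and 7 consecutive bins in the gene had higher scores at 24 h, for example 1 and 5 in each of 2 bins. Its 24 h share of the summed score was 65.7%, at percentile 98.9 of genes with a summed score of 20 or more. Stag1 had 40 and 48, Nipbl 11 and 12, and Rad21 36 and 38. Stag2 had 19 and 11, a share of 36.7% and percentile 4.88, with a lower score at 24 h in 5 of its 6 bins while its H3K27ac signal was nearly equal. Ctcf (39 and 38), Smc1a (18 and 18), Smc3 (73 and 68), Wapl (65 and 60) and Pds5b (5 and 4) were close to equal. After scaling both lists to equal totals, 3 of 9 genes with a summed score of 20 or more were 1.2-fold or more higher at 24 h (Pds5a, Stag1 and Nipbl; 23.4% of genes) and 1 was lower (Stag2; 17.5%).

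**Figure D4:**
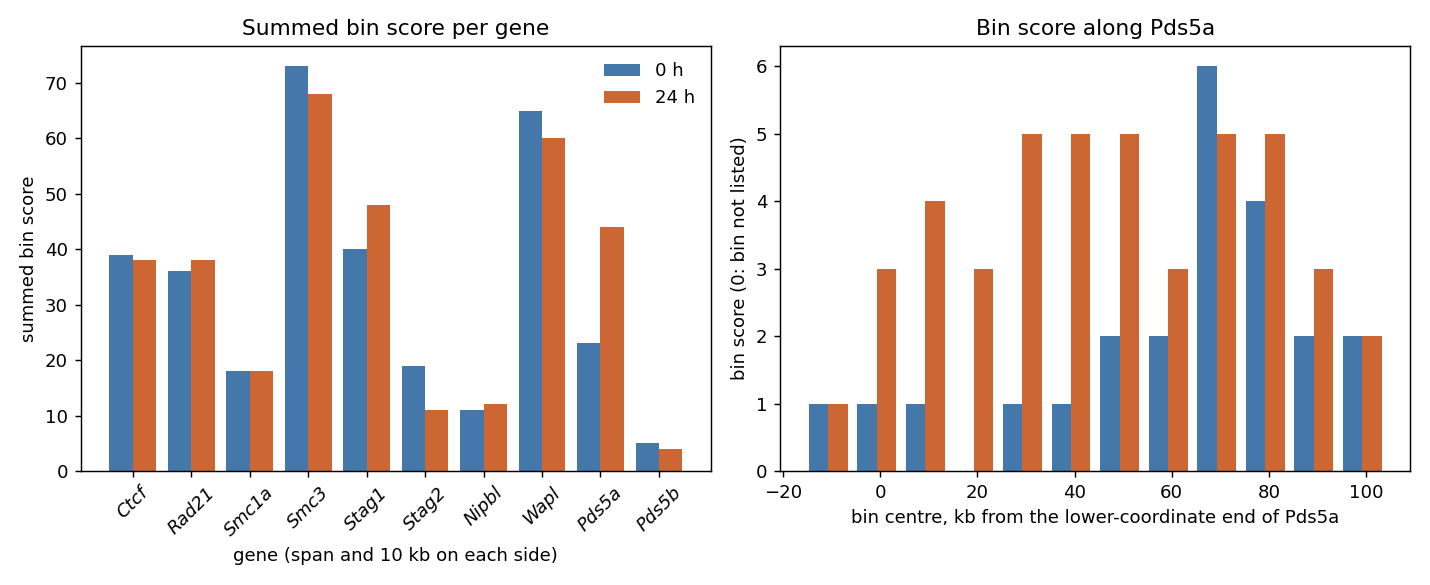
Left, summed bin score (y axis) over the bins of each gene (x axis) at 0 h and 24 h; right, the score of each bin along Pds5a (x axis: kb from the lower-coordinate end). Pds5a has 23 and 44 and Stag2 has 19 and 11, and the excess at Pds5a lies in the bins away from its promoter.

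In iPSCs all 10 genes had an H3K27ac peak in the flanked span (60.4% of all genes), 53 peaks in total, and all 7 listed promoter windows were overlapped by one (34.4% of all windows). With peaks that touch another protein-coding gene left out, 8 genes kept an H3K27ac peak and 5 a KLF4 peak. KLF4 was less regular. There were 7 KLF4 peaks at 6 of 10 genes (53.2% of all genes). At 3 genes, Ctcf, Rad21 and Stag1, a KLF4 peak overlapped H3K27ac (33.4% of all genes). Both counts per gene were close to those of genes in general, but the 10 genes are longer (median 84.1 kb against 17.3 kb). None of these shares per gene was matched for length. Per listed bin, KLF4 was rarer at the 10 genes. A KLF4 peak lay in 9 of their 80 bins (11.25%), edge bins included, against 22.9% of all 54825 bins. The KLF4 peak at the Pds5b promoter lay in an unlisted bin and is not counted. These shares were not matched for gene length or for position of bins in genes. Without flanks, 3 genes were overlapped by a KLF4 peak (Stag1, Nipbl and Pds5b) and 1, Stag1, by a KLF4 peak with H3K27ac. The Pds5b peak straddled the lower-coordinate end of the gene, with its centre outside it. Of the 42 bins valued at both times, 7 held a KLF4 peak, 2 of them (at Ctcf and Wapl) with the peak in the part of an edge bin outside the flank. Their median relative value was -0.10, with 4 of 7 below 0, against 0.15 in the 35 bins without KLF4, 11 of them below 0. Over all bins the medians were -0.08 and 0.06, so the order was the same as at the 10 genes. The 2 Rad21 bins are among these 7.

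Related genes outside the 10 were read the same way. Of 17 genes of the cohesin cycle, meiotic cohesin and CTCF partners, 14 had a bin valued at both times. Their median was 0.05, against 0.02 over all measured genes. Of the 14, 12 lay above 0 (53.3% of all measured genes did), some of them barely, down to 6.7e-05. None of them was 1.2-fold lower (11.6% of all measured genes were). Past 1.2-fold higher (13.1% of genes) was 1, Smc1b (0.58, from 1 bin, named after its value was seen). The highest of those with 2 or more bins were Rec8, the meiotic kleisin, at 0.26 and Sgo1, the protector of centromeric cohesin, at 0.24, and the lowest were Hdac8, the SMC3 deacetylase, at -0.07 and Cdca5, which encodes sororin, at -0.01. Rad21l and Ctcfl, germline relatives of Rad21 and Ctcf, had no valued bin at either time, and Stag3 had one at 24 h alone. All 14 condensin and SMC5/6 genes were measured, with a median of 0.03, 8 above 0 and 6 below. Smc6 (0.27), Ncaph2 (0.27) and Smc2 (0.26) were 1.2-fold or more higher (13.1% of all measured genes were). Nsmce3 (-0.28, from 1 bin) was 1.2-fold lower (11.6% of genes were). Ncaph, at -0.26, and Nsmce2, at -0.25, were the lowest of those with 2 or more bins. Both medians turned below 0 with values as deposited, and the condensin median also without flanks.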

How the data were processed

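The 12 samples were grouped by their titles, and each of the 4 ChIP groups was represented by 1 list that the authors deposited. The build mm10 and the tools MACS2, Bowtie2, bedtools and SAMtools are named, without versions or roles, per the submitters' processing notes. No source used here says how replicates were combined. The deposited lists have no header. Column 10 of the ESC lists was read as the H3K27ac signal that the authors deposited per 10 kb bin, of unstated normalization, where 2.225e-308 stands for no value. Column 4, the bin score that the authors deposited, is a whole number of unstated meaning. The iPSC lists hold peak positions only.

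Relative values are log2 of the 24 h over the 0 h signal minus the median over all bins valued at both times, averaged over the bins that touch a gene and 10 kb on each side. Log2 values and the share of the score were computed here. Overlap was 1 bp or more. With 1 list per group, a gene was called past 1.2-fold and nothing was tested. Gene positions and promoters came from RefSeq GRCm38.p6, the primary assembly of mm10. Percentiles are over protein-coding genes with a value. The 10 genes are all named, along with, from each related list, the 2 lowest and 2 highest genes with 2 or more bins valued at both times, and neighbours that touch a valued bin given in the text. Genes, lists and rules were chosen with earlier results of these data known. With 2 values per gene, no likeness of pattern was measured. Scripts used Python 3.11.15, pandas 2.3.3 and numpy 2.4.6, and the gene values and overlap counts were tested on simulated data. Alternatives changed flanks, shared bins, runs, scaling, folds and peak rules.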

Additional observations from a re-analysis of the deposited data

How the results depend on the processing

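No paired analysis was possible because each group was deposited as 1 list without values per replicate, and leaving out a replicate was not possible either. Of 58 values computed under alternatives for the medians and counts, 39 stayed within the spread over genes or within 1.5 times, 13 moved and 6 changed sign. The spread over genes served only as a measure of size. It does not measure replicate error, which is unknown.

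With values as deposited, the median relative value was -0.14 for the 10 genes, -0.18 for the cohesin cycle list and -0.19 for the condensin list, since the shift of all bins is -0.23. The condensin median was also -0.017 without flanks, -0.048 without bins shared with other genes and -0.040 with the highest value at each time. The cause was not tested. The median of the 10 genes stayed between 0.08 and 0.18 in the other alternatives.

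The count of genes 1.2-fold higher, 1 in the report, was 3 without shared bins (Ctcf, Smc1a and Pds5a), 0 as deposited, 0 with the highest value at each time, 4 at a fold of 1.1 and 0 at a fold of 1.5. The count of genes 1.2-fold lower, 0 in the report, was 1, always Rad21, with 25 kb flanks, without shared bins, with 1 bin per run of equal values, as deposited, with the highest value at each time and at a fold of 1.1. The share of all genes past the fold was computed only in the main setting (13.1% higher and 11.6% lower). The counts under alternatives therefore cannot be set against genes in general. Without flanks, 3 genes had a KLF4 peak in place of 6, and 1 had KLF4 overlapping H3K27ac in place of 3, by construction a smaller span. Single genes that changed sign outside the unscaled setting were Wapl (-0.018 with 25 kb flanks), Smc3 (-0.26) and Nipbl (-0.0079), both with the highest value at each time. Pds5b had no value without flanks or without shared bins. The depth behind all values is unknown.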

Other observations

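The ESC lists also hold 5 columns of marks of unstated meaning. Of the 80 bins of the 10 genes, none was marked in column 5 or 6 (2.84% and 0.857% of all bins were), 12 in column 7 (15.0%, against 10.8% of all bins) at Rad21, Stag1, Stag2, Nipbl, Wapl and Pds5a, and 3 in column 8 (3.75%, against 3.55%) at Rad21, Stag2 and Wapl. Column 9 marked 2 of the 80 bins, both at Rad21: the bin at its upper-coordinate end and the flanking bin whose signal was 13.3 at 0 h and 6.76 at 24 h. Over all bins 303 of 54825, or 0.553%, carried that mark.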
